A study of Mus musculus with 2 samples.

Results

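The 207 cells described here are Th17-like CD4 T cells found in mouse colon during graft-versus-host disease, an attack on the host by transplanted donor T cells. They were chosen by UMI counts (unique molecular identifiers, each standing for 1 captured RNA molecule). Kept cells had 500 or more genes found, and mitochondrial UMIs did not exceed 10%. It belonged to the CD4 class with at least 1 Cd4 UMI and no Cd8a or Cd8b1 UMI. It was Th17-like with at least 2 UMIs summed over the 5 genes Il17re, Il1r1, Il23r, Il17a and Il22. The Th17-like cells made up 11.1% of the 1861 CD4 class cells (Clopper-Pearson 95% interval 9.73 to 12.6), among 5333 kept cells in all. They were set against the 1491 CD4 class cells with 0 UMIs of the 5 genes, called the comparison cells below.

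The hosts were Balb/c mice that received a lethal dose of radiation and then a C57BL/6 (B6) graft of 5000000 bone marrow cells with enough splenocytes to supply 800000 alpha beta T cells. On day 21, colon cells of 5 such mice were combined and sorted for H2-Kb, the donor class I molecule, and TCR beta. Droplet chemistry for 5' ends (10x Genomics) yielded 1 library of RNA. A second library, of T cell receptors (TCRs), was made from that cDNA. Every cell described here therefore shares the treatment, the day and the pool, which has no untransplanted or healthy counterpart in these libraries. The pool is 1 sample. No cell can be traced to a mouse, so no test was made and every interval below is a 95% interval that covers counting error only.

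Th17 cells are helper T cells named for their cytokine IL-17. IL-6 and TGF-β start the programme, and IL-23 and IL-1 then sustain it through the receptors that Il23r and Il1r1 encode. The cells release IL-17A, IL-17F and IL-22, which act on epithelium and stroma to draw neutrophils and to strengthen the gut barrier. In the colon they are abundant at steady state in mice with certain commensal bacteria, and in graft-versus-host disease both harmful and protective roles have been described for their cytokines.

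The RNA matrix held 32772424 UMIs in 5348 barcodes, and 2391 of the kept cells were of the CD8 class, although the titles name CD4 T cells. The Th17-like cells had a median of 5841 UMIs per cell and the comparison cells 4557, so the Th17-like cells were the deeper class. A deeper cell reaches 2 UMIs more easily, so depth and the rule move together. Of the 5133 kept barcodes that the TCR library shared, 206 were Th17-like.

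Il17re and Il1r1 were the genes of the rule found in most Th17-like cells, and Il17a and Il22 the genes with most UMIs in few cells. Il17re, which encodes a receptor subunit for the epithelial cytokine IL-17C, was found in 131 of the 207 cells (63.3%, 56.3 to 69.9) with 219 UMIs and at most 5 UMIs in a cell. Il1r1, the signalling receptor of IL-1, was found in 113 cells with 170 UMIs. Il23r, a subunit of the IL-23 receptor, was found in 73 cells with 106 UMIs. The receptor genes were thus spread thinly, at a median of 1 UMI in a positive cell. Il17a was found in 49 cells, which held 340 UMIs at a median of 4 per positive cell and a highest count of 28. Il22 was found in 34 cells, with 321 UMIs. The cell richest in Il22 held 67 of these, and the 5 richest cells held 67.9%. These 5 values chose the cells and are given as a description.

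Most Th17-like cells showed few of the 5 genes at once. A single gene was found in 67 cells, 2 genes in 99, 3 genes in 31, 4 genes in 8 and all 5 in 2 cells. Il17re with Il1r1 was the most frequent combination, in 41 cells, ahead of Il17re alone in 25, Il17re with Il23r in 22 and Il17a alone in 16. Il17a and Il22 met in 10 cells, which were 20.4% of the Il17a-positive and 29.4% of the Il22-positive cells. A UMI of either cytokine was present in 73 Th17-like cells, while 134 entered through receptor genes alone. In the GRCm38 (mm10) annotation, Il17a lies on chromosome 1 from 20730905 to 20734496, Il1r1 on chromosome 1 from 40225080 to 40317257, Il23r on chromosome 6 from 67422932 to 67491855, Il17re on chromosome 6 from 113458484 to 113470758 and Il22 on chromosome 10 from 118204942 to 118210047.

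**Figure D1:**
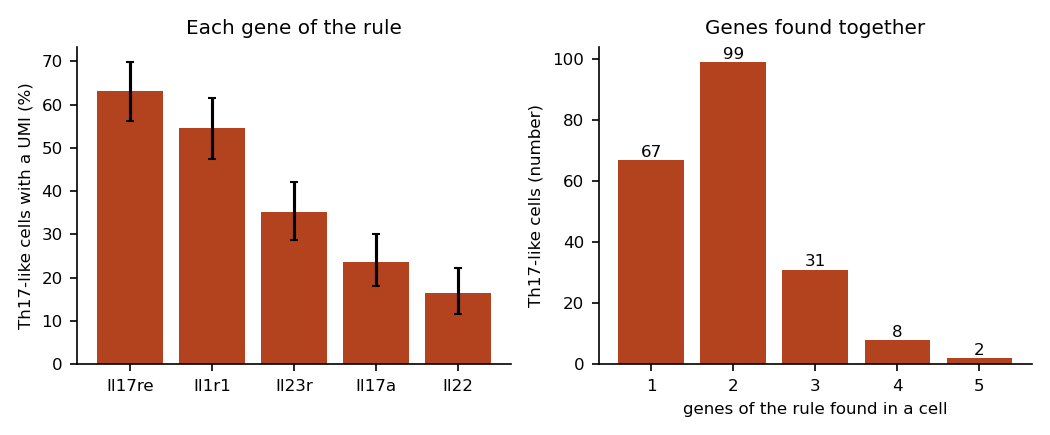
Left, the share of the 207 Th17-like cells (%) with a UMI of each gene of the rule, with Clopper-Pearson 95% intervals. Right, the number of Th17-like cells in which 1 to 5 of these genes were found; 99 cells had 2 genes and 2 cells had all 5.

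Few CD8 class cells passed the same threshold, namely 6 of 2391 CD8 class cells (0.251%, 0.0921 to 0.545), at a median depth of 4910 UMIs. In the CD8 class Il17re had 9 UMIs, Il1r1 17, Il23r 4, Il17a 7 and Il22 1. Of 61 barcodes rich in macrophage transcripts, 4 passed.

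Th17-like cells lay close to the threshold in many cases, and the cells just outside it resembled them in part. Of the 207 cells, 87 had exactly 2 UMIs of the rule and 21 had over 10, with a highest sum of 81. A further 163 CD4 class cells had 1 UMI. From 0 to 1, 2, and 3 or more UMIs of the rule, Pde5a, which encodes a cyclic GMP phosphodiesterase, stood at 0.0594 (0.0443 to 0.0781), 0.571 (0.430 to 0.743), 0.665 (0.475 to 0.906) and 1.07 UMIs per 10000 (0.874 to 1.30). For Pde5a, the interval of cells with 1 UMI overlapped that of cells with 2 UMIs and lay above that of the comparison cells. Tmem176b, which encodes a membrane cation channel, was graded, at 0.679 UMIs per 10000 with 0 UMIs of the rule, 1.67 with 1, 2.79 with 2 and 3.79 with 3 or more. Ccl5, a chemokine of cytotoxic and Th1 cells, was graded the other way, at 34.3, 12.8, 8.58 and 4.56 in the same order. Ifng, the interferon gamma gene, followed neither order, at 2.05, 1.59, 2.46 and 1.62.

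**Figure D2:**
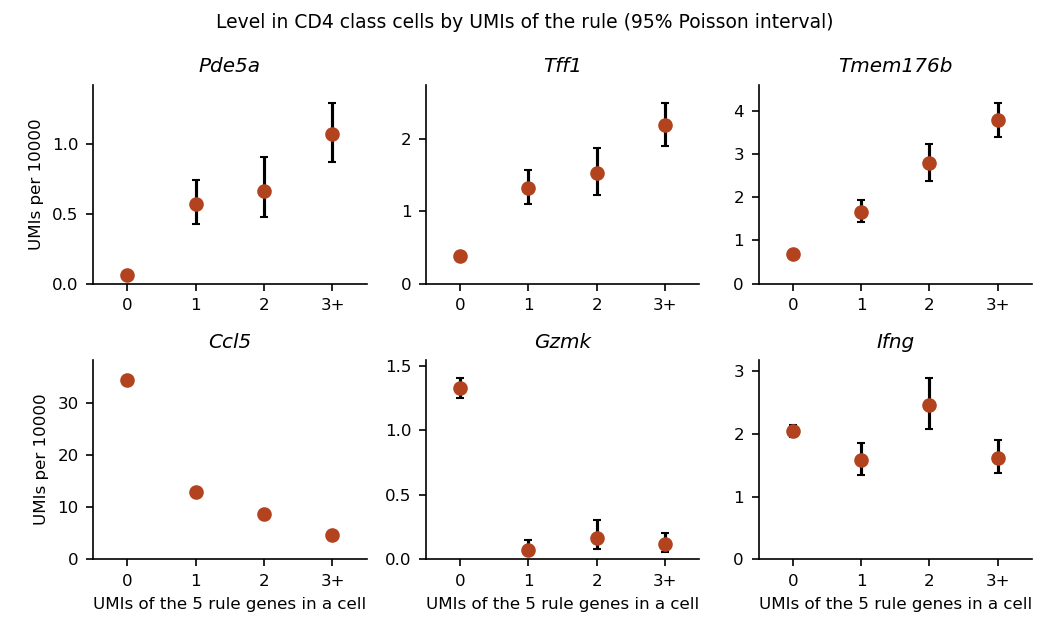
Level in UMIs per 10000 of 6 genes in CD4 class cells with 0, 1, 2 and 3 or more UMIs of the rule; whiskers are Poisson 95% intervals. Pde5a stands at 0.0594 with 0 UMIs and 1.07 with 3 or more, and Ccl5 stands at 34.3 with 0 UMIs and 4.56 with 3 or more.

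The genes of the rule went together when each was measured in cells chosen without it. CD4 class cells with at least 2 UMIs of the other 4 genes were set against CD4 class cells with 0 of those 4. Il17re was found in 42.4% of 132 such cells (33.9 to 51.3) and in 6.70% of 1598 without the other genes (5.52 to 8.03), a ratio of summed UMIs of 5.84 (4.43 to 7.68). The ratio was 8.69 for Il1r1 (6.30 to 11.998), 6.54 for Il23r (4.21 to 10.1) and 9.16 for Il17a (7.20 to 11.7). Il22 reached 95.7 (56.9 to 174), with 21 of 194 cells positive against 9 of 1500, and a few very rich cells carried it. All 5 intervals lay above 1. The rule was set with earlier results of these data known, so these values describe its genes and give no separate support. The shares of positive cells were not matched for depth.

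The rest of the transcriptome placed these cells together. Principal components of the CD4 class were computed without the 5 genes and without TCR genes, and the 15 nearest CD4 class cells of each cell were listed. On average 44.5% of the neighbours of a Th17-like cell were Th17-like, against 7.18% for a comparison cell and 11.1% in the class as a whole. Cells with 1 UMI of the rule lay between, at 33.3%. Leaving out neighbours of the same clonotype gave 44.3% for Th17-like cells. Only 115 of the 207 had a clonotype, so clone mates of the others could not be left out. The part of clonal origin in the neighbour share was not tested. Of the 207 Th17-like cells, 4 had no Th17-like neighbour, against 847 of the 1491 comparison cells.

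Beyond the rule, the Th17-like cells carried a chemokine receptor typical of this lineage. Summed over Th17-like and comparison cells, 8703 genes reached 50 UMIs. Of these, 95 (1.09%) were 2-fold or more higher in Th17-like cells and 446 (5.12%) 2-fold or more lower, by the ratio of summed UMIs per total UMIs. Ccr6, the receptor of the epithelial chemokine CCL20, had 35 UMIs in 21 Th17-like cells and 21 UMIs in 17 comparison cells, a ratio of 9.15 (5.18 to 16.5). It was thus detected in a minority of Th17-like cells at this depth. The ratios come from the cells that the rule chose, so they describe the class and test nothing. A range of 4000 to 8000 UMIs per cell, chosen after the data were seen, held 102 Th17-like and 707 comparison cells. There, 51 of the 53 genes still measured of the 95 were 2-fold or more higher in Th17-like cells. Of the 446, 244 were still measured and 200 were 2-fold or more lower. Over all 6815 genes measured in this range, 120 were 2-fold or more higher and 428 lower. These cells are part of those that chose the genes, so the counts are a description and no separate support.

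Of the 9 Th17 transcription factors reported here, 8 lay within 2-fold of the comparison cells. Ahr, the aryl hydrocarbon receptor needed for IL-22 production, was past 2-fold lower at 0.482 (0.325 to 0.693). Ahr lay within 2-fold once cells with 1 UMI of the rule were counted as Th17-like (log2 ratio -0.84). The median log2 ratio of the list was 0.08, beside -0.03 over all genes tested. Irf4, which acts early in Th17 differentiation, stood at 1.95 times the comparison level (1.60 to 2.36) and Rora, a nuclear receptor gene, at 1.47 (1.39 to 1.56). Batf, the AP-1 partner of Irf4, was at 1.05 (0.968 to 1.15). Maf, which drives Il10 in Th17 cells, stood at 0.733 (0.634 to 0.843), Stat3, which relays IL-6, IL-21 and IL-23, at 0.734 (0.651 to 0.825), and Nfkbiz, a coactivator of Il17a, at 0.650 (0.594 to 0.710).

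Of the cytokine genes outside the rule, Cxcl3 stood out and Csf2 was lower. Cxcl3, a chemokine that draws neutrophils, had 198 UMIs in 21 Th17-like cells and 40 UMIs in 11 comparison cells, a ratio of 27.2 (19.3 to 39.2) and the highest among the named genes. Its highest count in a Th17-like cell was 29 UMIs. Macrophage-marker barcodes also carried Cxcl3, with 367 UMIs in 9 of 61 barcodes. Of the 21 Cxcl3-positive Th17-like cells, 3 had 2 or more macrophage UMIs, and these 3 held 8 of the 198 UMIs. The part of macrophage RNA in the Cxcl3 level was not tested. Csf2, which encodes GM-CSF, had 102 UMIs in 15 Th17-like cells and 1531 in 249 comparison cells, a ratio of 0.366 (0.296 to 0.447). Its UMIs were uneven within the Th17-like class: cells with 2 UMIs of the rule held 90 of the 102, and cells with 3 or more held 12. Without cycling cells Csf2 lay within 2-fold, at a log2 ratio of -0.69, by the mean of per-cell levels at -0.85, and with the classes set after thinning to 2000 UMIs at -0.071. Ltb, which encodes lymphotoxin beta, was at 1.58 (1.48 to 1.67), Tnf at 1.20 (0.948 to 1.52) and Il21 at 1.104 (0.736 to 1.61). Il17f, the close relative of Il17a, had 3 UMIs in Th17-like cells and 1 in comparison cells, and Ccl20, the ligand of CCR6, had 10 in Th17-like and 9 in comparison cells, too few for the gene filter. Of the 9 genes of this list 6 passed the filter, 1 of them past 2-fold higher and 1 past 2-fold lower.

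Among receptors of Th17 signals outside the rule, 3 of the 8 measured of 14 were 2-fold or more higher and none 2-fold lower. These were Ccr6, Il1r2, the decoy receptor of IL-1, at 2.24 (2.02 to 2.48), and Ltb4r1, the leukotriene B4 receptor, at 2.10 (1.67 to 2.64). Ltb4r1 lay within 2-fold against all other CD4 class cells (log2 ratio 0.87) and with 1 cell per clonotype and class (0.23). Il17ra, the shared subunit of IL-17 receptors, was at 0.993 (0.739 to 1.31), and Il12rb1, the partner of Il23r in the IL-23 receptor, at 0.680 (0.507 to 0.897). The pathogenic Th17 signature, genes that mark Th17 cells matured with IL-23, had 1 gene of 14 past 2-fold higher and 6 past 2-fold lower, with a median log2 ratio of -0.54. Its lower genes included Gzmb at 0.291 (0.257 to 0.330), Lgals3 at 0.303 (0.257 to 0.355) and Ccl5 at 0.178 (0.167 to 0.190). The regulatory Th17 signature had 2 of 4 measured genes past 2-fold lower, Ahr and Il10.

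Several of the genes with the highest ratios have roles outside the textbook Th17 list. Pde5a had 143 UMIs in 83 Th17-like cells and 51 UMIs in 38 comparison cells, a ratio of 15.4 (11.1 to 21.6). B3galt2, a galactosyltransferase, stood at 18.1 (10.4 to 33.2), 1700012B07Rik, a transcript named only by its clone, at 15.8 (8.77 to 29.9), and Aqp3, a water and glycerol channel, at 8.999 (6.26 to 13.1). Ramp1, the partner protein of the receptor for the neuropeptide CGRP, was at 6.402 (5.01 to 8.19). Tmem176a and Tmem176b, neighbouring genes for cation channels, stood at 5.93 (5.15 to 6.82) and 5.02 (4.45 to 5.65). Tff1, a trefoil peptide better known from stomach epithelium, was at 5.07 (4.32 to 5.94), with 303 UMIs in 92 Th17-like cells and 328 in 141 comparison cells. Cd24a, a surface glycoprotein, was at 5.32 (3.73 to 7.60). Each of these genes was found in 27 or more Th17-like cells, so no single cell carried it.

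**Figure D3:**
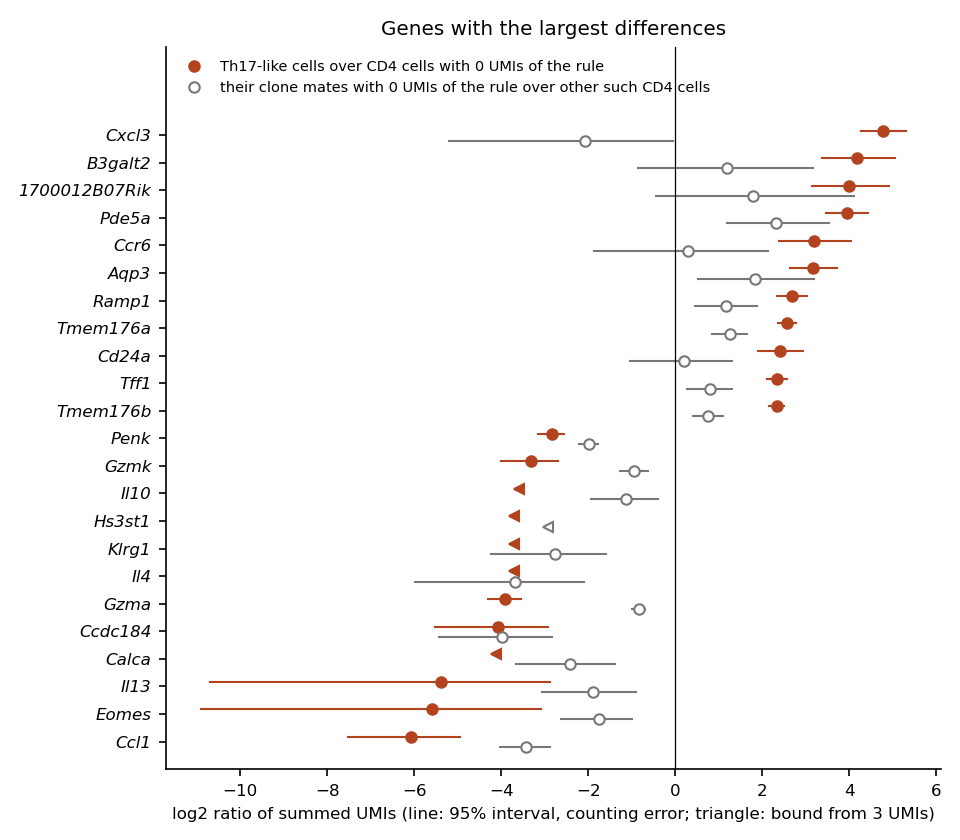
Log2 ratio of summed UMIs for 11 of the highest and the 12 lowest genes in Th17-like cells by the interval bound nearest 1 (filled, Th17-like over comparison cells), and for the clone mates of Th17-like cells over other comparison cells (open). Lines are 95% intervals and triangles are values set at a floor of 3 UMIs. Open points include genes under 50 UMIs in the clone mate comparison, such as Cxcl3, Pde5a and Aqp3; Cxcl3 lies highest in Th17-like cells, at 4.76, and Tmem176a and Ramp1 lie above 0 in both comparisons.

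Cytotoxic genes were mostly low in Th17-like cells. Of 11 measured cytotoxic genes, 10 were 2-fold or more lower and none higher, with a median log2 ratio of -1.78. Gzma, a granzyme, had 60 UMIs in 8 Th17-like cells, 49 of them in a single cell, and 4957 in 282 comparison cells, a ratio of 0.0664 (0.0506 to 0.0856). Gzmk was at 0.101 (0.0624 to 0.155) and Prf1, which encodes perforin, at 0.0778 (0.00933 to 0.286). Klrg1, a receptor of terminal effector cells, had 0 UMIs in Th17-like cells and 215 in comparison cells, at least 13.1-fold lower against a floor of 3 UMIs over the class. Eomes, a T-box factor of cytotoxic cells, had 1 UMI in Th17-like cells and 263 in comparison cells.

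Several type 2 and regulatory genes were low as well. Of 9 measured Th2 genes 6 were 2-fold or more lower and none higher, with a median log2 ratio of -1.69. Il4 had 0 UMIs in Th17-like cells and 215 in 85 comparison cells, 13.1-fold lower at the floor of 3 UMIs (upper limit of the ratio 0.0950). Il13 had 1 UMI in Th17-like and 229 in comparison cells, and Gata3, the defining Th2 factor, stood at 0.340 times the comparison level, with 59 UMIs in Th17-like and 951 in comparison cells. Areg, the growth factor amphiregulin, was close to equality at 0.802, with 515 UMIs in Th17-like and 3525 in comparison cells. Il10 had 0 UMIs in Th17-like cells and 198 in 79 comparison cells, 12.03-fold lower at the floor (upper limit of the ratio 0.103). Foxp3, the defining factor of regulatory T cells, had 0 in Th17-like and 95 in comparison cells, 5.77-fold lower at the floor (upper limit 0.217). Of 10 measured Treg genes 5 were 2-fold or more lower and none higher, with a median log2 ratio of -1.16, or -0.23 when the classes were set after thinning. Ctla4, an inhibitory receptor, stood at 1.36 (1.28 to 1.45), and Il2ra, a chain of the IL-2 receptor, at 0.771 (0.657 to 0.901). Ccl1, a chemokine of Th2 and regulatory cells, had 6 UMIs in Th17-like and 2214 in comparison cells, a ratio of 0.0149 (0.00545 to 0.0324). Calca, the gene of CGRP whose receptor partner Ramp1 was high, had 0 UMIs in Th17-like cells and 288 in comparison cells. It was 17.5-fold lower at the floor (upper limit of the ratio 0.0707). Penk, an opioid peptide precursor, was at 0.139 (0.112 to 0.171). When the classes were set after thinning to 2000 UMIs, which left 39 Th17-like cells, Il10 and Penk lay within 2-fold, at log2 ratios of -0.03 and -0.04.

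Th1 genes split. Of 12 measured, 4 were 2-fold or more lower and none higher, with a median log2 ratio of -0.13. Tbx21, the defining Th1 factor, stood at 0.350 (0.254 to 0.471), Nkg7 at 0.372 (0.346 to 0.399), Fasl at 0.398 (0.326 to 0.481), and Ccl5 as given above. Fasl lay within 2-fold when the classes were set after thinning (log2 ratio -0.87), at 1 or more UMI of the rule (-0.95) and with 1 cell per clonotype and class (-0.89). Ifng, with 304 UMIs in Th17-like and 1758 in comparison cells, was at 0.949 times the comparison level, Stat4 at 0.950, Il12rb2, a subunit of the IL-12 receptor, at 0.955 and Cxcr3, a Th1 homing receptor, at 1.34 (1.15 to 1.55). Of 7 measured Tfh genes, those of follicular helper cells, Tox2 was past 2-fold higher at 2.24 (1.78 to 2.80) and 3 were past 2-fold lower, Pdcd1, Sh2d1a at 0.474 (0.384 to 0.580) and Slamf6 at 0.486 (0.344 to 0.670). The Tfh median was 0.14, or -0.76 with 3 or more UMIs of the rule. Other lists with a lower median were inhibitory receptors (-0.78, 4 of 9 past 2-fold lower), with Pdcd1, the gene of PD-1, at 0.271 (0.222 to 0.327), early TCR response genes (-0.71, 4 of 11) and interferon response genes (-0.86, 3 of 9). The cycling list had the highest median of the lists that hold 10 or more genes, at 0.45, but none of its 12 genes passed 2-fold, and the median was below 0 with 1 cell per clonotype and class (-0.076) and with the classes set after thinning (-0.86, from 39 Th17-like cells). At full depth, 67 of 207 Th17-like cells (32.4%, 26.0 to 39.2) and 297 of 1491 comparison cells (19.9%, 17.9 to 22.0) had at least 2 UMIs of 5 mitotic genes. With every cell thinned to 2000 UMIs, the shares were 19.3% of Th17-like (14.2 to 25.4) and 13.3% of comparison cells (11.6 to 15.1).

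**Figure D4:**
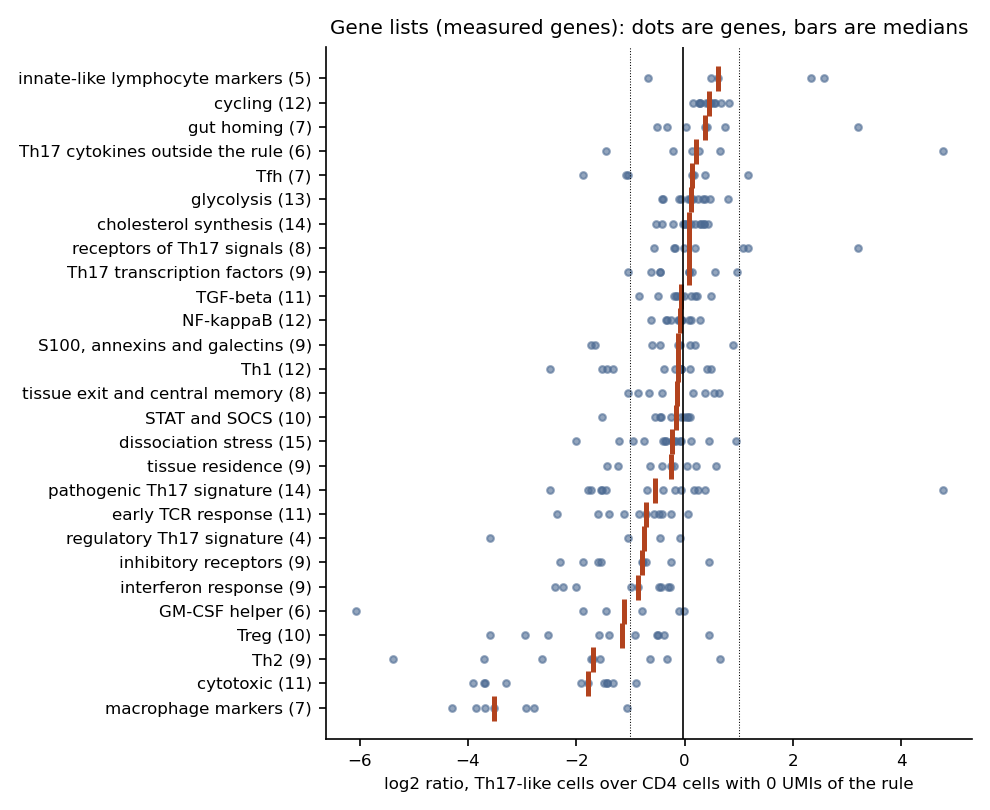
Log2 ratio of Th17-like over comparison cells for the measured genes of each list (dots, number of genes in brackets) with the list median (bar); the solid line is the median of all 8703 genes and dotted lines mark 2-fold. Cytotoxic and Th2 lists lie lowest among T cell lists, and single genes such as Cxcl3 and Ccr6 stand apart from lists whose medians lie near 0.

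The same pattern held for shares of cells at equal depth. After thinning to 2000 UMIs per cell, Pde5a was found in 18.4% of Th17-like cells (13.3 to 24.3) and 1.27% of comparison cells (0.769 to 1.98), with 0.418% in the CD8 class, and Tmem176b in 44.0% of Th17-like (37.1 to 51.0) and 9.52% of comparison cells (8.08 to 11.1). Cxcl3 was found in 7.25% of Th17-like (4.11 to 11.7) and 0.671% of comparison cells (0.322 to 1.23), and in 11.5% of the 61 macrophage-marker barcodes. Il4, Il13, Il10, Foxp3, Eomes and Klrg1 were found in 0 of 207 Th17-like cells each at this thinned depth, where 3 cells would be 1.45% and the Clopper-Pearson bound is 1.77%. Both limit cells with a UMI, not cells that express the gene, and at full depth Il13 and Eomes were each found in 1 Th17-like cell. In comparison cells they were found in 1.27% to 5.70% of cells. Ifng was found in 27.1% of Th17-like cells (21.1 to 33.6) and 21.2% of comparison cells (19.1 to 23.4), and the intervals overlapped.

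Markers of other cell types were mostly low. Macrophage markers stood at 0.205 UMIs per 10000 summed over 11 genes in Th17-like cells and 1.85 in comparison cells, with Csf1r and Adgre1 at 0 in Th17-like cells. The shares of cells with 2 or more macrophage UMIs were closer, at 7 Th17-like cells (3.38%) and 61 comparison cells (4.09%). A single comparison cell held 92 of the 351 UMIs of H2-Aa, an MHC class II gene, in that class. In Th17-like cells H2-Aa had 5 UMIs. Of 8 gamma delta T cell markers, Trdc and Tcrg-C4 were at 0 in Th17-like cells and Sox13 and Blk at 0 in both classes. Tcrg-C2 had 8 UMIs in Th17-like and 106 in comparison cells, a ratio of 0.414 (0.174 to 0.846), and lay within 2-fold without cycling cells (log2 ratio -0.61) and by the mean of cells (-0.74). Tcrg-C1, a constant segment whose reads can be shared with near-identical copies, stood at 2.09 (1.45 to 2.95). Against all other CD4 class cells the Tcrg-C1 log2 ratio was 0.99, just within 2-fold. Innate-like lymphocyte markers were higher, at 8.65 UMIs per 10000 over 9 genes in Th17-like and 3.05 in comparison cells, with Zbtb16 and Ncr1 at 0 in both classes, and of its 1353 UMIs in Th17-like cells Tmem176a gave 419 and Tmem176b 533. Krt18, an epithelial keratin gene, had 24 UMIs in 23 Th17-like cells and 30 in 25 comparison cells, a ratio of 4.39 (2.46 to 7.77), while Krt20 and Muc2 were at 0 in both classes. The part of these markers in the differences was not tested.

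Th17-like cells that held a cytokine transcript were set against those chosen by receptor genes alone. Genes with 30 or more UMIs over both groups were tested. Of these 5481 genes, 80 (1.46%) were 2-fold or more higher and 88 (1.61%) 2-fold or more lower in the 73 cells with Il17a or Il22 than in the 134 without. Tnfsf11, which encodes the cytokine RANKL, was at 2.85 (2.34 to 3.48), with 299 UMIs in 35 cytokine-positive and 156 UMIs in 42 receptor-only cells. The replication and repair genes Mcm3 and Ung were at 2.57 (1.85 to 3.61) and 4.46 (2.04 to 10.8), and Ccr6 at 3.25 (1.53 to 7.34). The interval of Pde5a, at 0.986 (0.693 to 1.39), held 1. Lower genes included Csf2 at 0.298 (0.166 to 0.505), Tnf at 0.372 (0.209 to 0.630), Cd7, a surface receptor of T cells, at 0.430 (0.350 to 0.526) and Ifitm1, an interferon-induced gene, at 0.0282 (0.00576 to 0.0841). Ifitm1 lay in 10 receptor-only cells, 1 of which held 62 of 158 UMIs. Csf2 lay in 5 cytokine-positive and 10 receptor-only cells, with 13 of 17 and 28 of 85 UMIs in 1 cell of each group. For Tnf, 1 receptor-only cell held 18 of 72 UMIs. Depth differed too, with medians of 6721 UMIs in cytokine-positive and 5705.5 in receptor-only cells.

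The Th17-like cells shared few cells with the other CD4 classes set by their own genes. Of 141 Th2-like cells, with 2 or more UMIs of Il4, Il5, Il13 and Il1rl1, 2 (1.42%) were also Th17-like. None of 68 Il10-positive Foxp3-negative cells and none of 27 Foxp3-positive cells was. In the CD4 class as a whole the Th17-like share was 11.1%, and 27 cells are few for reading a count of 0. Pde5a was 0.914 UMIs per 10000 in Th17-like cells (0.771 to 1.08) and 0.0391 in Th2-like cells (0.0107 to 0.100). Gata3 was 0.377 in Th17-like cells (0.287 to 0.487) and 2.78 in Th2-like cells (2.46 to 3.12). Tff1 was 1.94 in Th17-like cells (1.73 to 2.17) and 0.0977 in Th2-like cells (0.0469 to 0.180). Low Ccl5 was not particular to Th17-like cells. It was 6.11 there (5.73 to 6.51), 5.22 in Th2-like cells (4.79 to 5.68) and 168 in Il10-positive cells (163 to 172). Gzmk was 0.134 in Th17-like cells (0.0831 to 0.205), 0.313 in Th2-like cells (0.214 to 0.442) and 5.85 in Il10-positive cells (5.05 to 6.73).

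The TCR library gave a measure that the rule did not use. Cells were put in the same clonotype when all their productive TRA and TRB chains matched in CDR3 bases and in V and J segment. A clonotype was given only to cells with a single productive TRB and a productive TRA. Among Th17-like cells, 115 had a clonotype, in 56 clonotypes, and 85.2% of them (77.4 to 91.1) belonged to a clonotype with 2 or more kept cells. In comparison cells this share was 73.2% (69.8 to 76.5) of 684. The chance that 2 Th17-like cells drawn at random share a clonotype was 3.31%, against 1.59% for comparison cells. The 6 largest Th17-like clonotypes held 49 of the 115 cells, or 42.6%.

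These 6 clonotypes are printed below by the CDR3 nucleotide sequence of their chains, because they are the clonotypes, by this definition, that held most Th17-like cells. Each runs 5′ to 3′ from the conserved cysteine codon, and capitals mark the bases between the germline V and J segments, which are read from neither. TRB lies on chromosome 6 and TRA on chromosome 14. The contigs' segment names are the submitters' annotation, and the germline matching used the GENCODE transcripts.
Clonotype 1 TRB, TRBV3 with TRBJ2-3: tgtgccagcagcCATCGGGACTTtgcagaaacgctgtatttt
Clonotype 1 TRA, TRAV3D-3 with TRAJ21: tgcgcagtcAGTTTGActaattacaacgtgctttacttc
Clonotype 1 TRA, TRAV14-2 with TRAJ26: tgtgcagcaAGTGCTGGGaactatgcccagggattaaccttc
Clonotypes 2 and 6 TRB, TRBV19 with TRBJ2-5: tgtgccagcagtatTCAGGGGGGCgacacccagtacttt
Clonotypes 2 and 6 TRA, TRAV10 with TRAJ33: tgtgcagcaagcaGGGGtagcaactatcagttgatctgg
Clonotype 2 TRA, TRAV6D-6 with TRAJ26: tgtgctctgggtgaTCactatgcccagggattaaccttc
Clonotype 3 TRB, TRBV31 with TRBJ1-1: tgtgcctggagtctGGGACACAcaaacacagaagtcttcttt
Clonotype 3 TRA, TRAV6D-7 with TRAJ56: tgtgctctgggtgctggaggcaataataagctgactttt
Clonotype 4 TRB, TRBV31 with TRBJ2-7: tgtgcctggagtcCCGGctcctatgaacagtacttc
Clonotype 4 TRA, TRAV13-4/DV7 with TRAJ42: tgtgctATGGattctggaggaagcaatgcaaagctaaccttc
Clonotype 5 TRB, TRBV13-3 with TRBJ2-4: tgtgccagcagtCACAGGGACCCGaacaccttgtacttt
Clonotype 5 TRA, TRAV13D-2 with TRAJ37: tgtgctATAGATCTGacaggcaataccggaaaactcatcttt

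Clonotypes 2 and 6 share their TRB and 1 TRA sequence and differ in the second TRA chain, which was found in clonotype 2 and not in clonotype 6. Their TRB sequence was found in 16 Th17-like cells and 37 kept cells. The TRB sequence of clonotype 5 was found in 12 Th17-like cells of 6 clonotypes and in 41 kept cells. Cells with the same TRB can thus fall in different clonotypes, and the order of the 6 by size depends on the definition. The TRA of clonotype 3 has no base outside its germline segments. Clonotype 1 had 11 Th17-like cells, 8 with 1 UMI of the rule and 12 with none, so 35.5% of its 31 CD4 class cells were Th17-like (19.2 to 54.6). Clonotype 2 had 11 of 19 (57.9%, 33.5 to 79.7), clonotype 3 had 10 of 33 (30.3%, 15.6 to 48.7), clonotype 4 had 7 of 18, clonotype 5 had 6 of 8 and clonotype 6 had 4 of 6. Il17a was found in 6 Th17-like cells of clonotype 1 and in none of clonotypes 4, 5 and 6. The 6 clonotypes held 1 CD8 class cell.

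**Figure D5:**
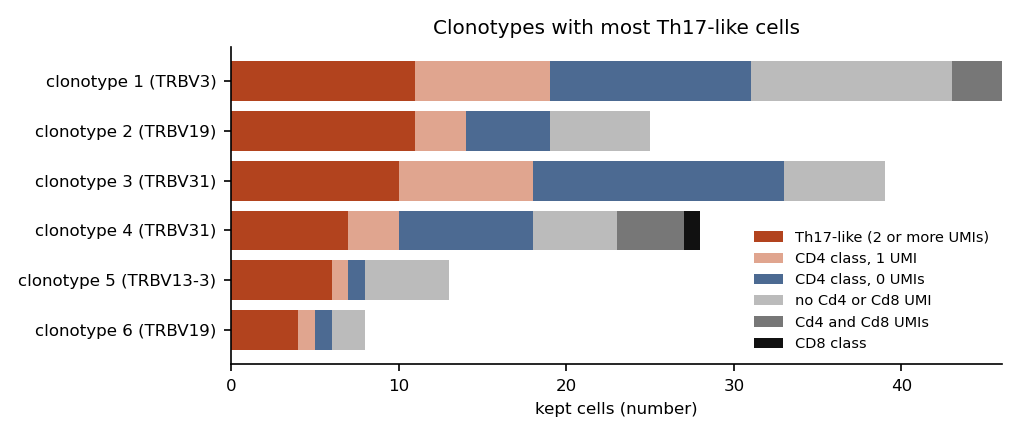
Kept cells of the 6 clonotypes with most Th17-like cells, split by class. Clonotype 1 has 11 Th17-like cells, 8 cells with 1 UMI of the rule, 12 comparison cells, 12 cells with no Cd4 or Cd8 UMI and 3 with both; a CD8 class cell appears in clonotype 4 only.

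Clonotypes were not filled evenly. Same-clonotype pairs among Th17-like cells were 2.36 times as many as independence of clonotype and class gives, and pairs with cells of 1 UMI 2.01 times. Pairs with comparison cells were 0.537 times as many, with Th2-like cells 0.113 times, with Il10-positive cells 0.141 times and with Foxp3-positive cells 0.660 times. The pairs with Th2-like, Il10-positive and Foxp3-positive cells numbered 12, 10 and 16, and a large clonotype adds many pairs. By cells, 13.6% of 66 Th2-like cells (6.43 to 24.3) lay in clonotypes that held Th17-like cells. This share was 20.5% of 44 Il10-positive cells (9.80 to 35.3), 26.7% of 15 Foxp3-positive cells (7.79 to 55.1) and 25.3% of 684 comparison cells (22.1 to 28.7). The Th2-like, Il10-positive and Foxp3-positive intervals all overlapped that of comparison cells. Of 35 clonotypes with 5 or more CD4 class cells, 17 held no Th17-like cell, the largest of them with 40 CD4 class cells, and 12 held at least 20% Th17-like cells. These 12 contained 59 of the 66 Th17-like cells in the 35 clonotypes. Cells of a clonotype share their origin, so these cells are not independent of each other.

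By V segment, TRBV31 was used by 19.0% of 142 Th17-like cells with a single TRB (12.9 to 26.4) and by 7.76% of 838 comparison cells (6.04 to 9.78). Those of the 27 Th17-like cells with TRBV31 that had a clonotype fell in 3 clonotypes, so the share rests on few clones. TRBV13-3 was used by 11.3% of Th17-like (6.58 to 17.7) and 3.82% of comparison cells (2.63 to 5.35), and TRBV13-1 by 0.704% of Th17-like (0.0178 to 3.86) and 7.28% of comparison cells (5.61 to 9.25). The TRBV13-3 share was 16 Th17-like cells, and the TRB sequence of clonotype 5 alone was found in 12 Th17-like cells. It too therefore rests on few TRB sequences. No Th17-like cell of 168 with a productive TRA carried the invariant chain of iNKT cells (TRAV11 with TRAJ18) or of MAIT cells (TRAV1 with TRAJ33), where 3 cells would be 1.79%.

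Clone mates of Th17-like cells that lacked all 5 transcripts carried part of the same pattern. They were 173 comparison cells of 28 clonotypes that also held Th17-like cells, set against 511 comparison cells of other clonotypes, with median depths of 5068 and 4831 UMIs. This comparison was chosen after the values were seen. Of 6906 genes tested, 43 (0.623%) were 2-fold or more higher and 170 (2.46%) 2-fold or more lower in clone mates. Of the 40 genes higher in Th17-like cells that were measured here, 31 lay above 1 and 9 passed 2-fold higher, and none passed 2-fold lower. Their median log2 ratio was 0.51 in clone mates, while in Th17-like cells it was 1.24. Over all genes tested the median in clone mates was 0.012. Of 239 genes lower in Th17-like cells, 87 were 2-fold or more lower in clone mates. In clone mates 41 of the 239 lay above 1, and 5 were 2-fold or more higher. These genes were chosen by their values in the same comparison cells, which enter both ratios.

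By gene, Tmem176a was at 2.37 in clone mates (1.79 to 3.14) and Ramp1 at 2.25 (1.36 to 3.68), while Csf2 was at 0.0662 (0.0396 to 0.104) and Ccl1 at 0.0931 (0.0614 to 0.136). Pde5a, Aqp3 and Cxcl3 fell under the filter of 50 UMIs here. Pde5a stood at 4.98 (2.27 to 11.5), with 20 UMIs in the 173 clone mates and 11 in the 511 other cells, and Aqp3 at 3.56 (1.44 to 9.07), with 13 in clone mates and 10 in the other cells. Cxcl3 had 2 UMIs in 1 clone mate and 23 in 4 other cells, 15 of them in a single cell. Gzmb, low in Th17-like cells, stood at 1.25 (1.15 to 1.36) in clone mates, and Il1r2, high in Th17-like cells, at 0.695 (0.569 to 0.844). Macrophage markers moved with this comparison, with 3 of 4 measured genes past 2-fold higher in clone mates and a median log2 ratio of 2.18. H2-Aa had 87 UMIs in 7 clone mates and 31 in 9 other cells, a ratio of 7.69 (5.05 to 11.98), and H2-Ab1 was at 4.28 (2.69 to 6.89). The part of these markers in the comparison was not tested.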

How the data were processed

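Deposited UMI counts per gene and barcode, whole and not normalized, were used with the TCR contig table, whose deposited read and UMI counts, chains and segments are the submitters' annotation. Cell Ranger and the mm10 build are named per the submitters' processing notes, without a version. The members and gene lists were chosen with earlier results of these data known.

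Levels are summed UMIs of a class per 10000, with exact Poisson intervals. Ratios are of 2 such sums, with exact conditional binomial intervals, for genes that reach 50 UMIs in the 2 classes together. The comparison within Th17-like cells used 30 UMIs in place of 50. TCR segment, immunoglobulin, rule and lineage genes were left out. A gene was past the fold at a ratio of 2 or more or 0.5 or less. A class at 0 was set to a floor of 3 UMIs, so its fold is a value at that floor and not a confidence limit. Named genes were the measured genes of the first 3 lists, the 12 highest and 12 lowest by the bound nearest 1 and up to 4 of each other list, and the 8 highest and lowest within Th17-like cells. The results of some genes are left out of the text, figures and lists. Genes named outside this rule were chosen after their values were seen. Shares carry Clopper-Pearson intervals, on cells thinned to 2000 UMIs where stated. Neighbours came from 30 components of 2000 variable genes. No doublet caller was run; 12 Th17-like and 26 comparison cells had 2 or more productive TRB chains. Software was matplotlib 3.10.9, pandas 2.3.3, scipy 1.17.1, numpy 2.4.6 and Python 3.11.15. Positions are 1-based, from GENCODE for GRCm38.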

Additional observations from a re-analysis of the deposited data

Results flagged for a closer look

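Cells outside the CD4 class also reached the threshold of the rule, a signal in cells that the comparisons above did not use. Of 780 cells with neither Cd4 nor Cd8 UMIs, 65 had 2 or more UMIs of the 5 genes (8.33%, 6.49 to 10.5), and of 301 cells with both, 36 did (11.96%, 8.52 to 16.2). In the CD8 class the share was 0.251%. Of the 65 cells, 35 had a clonotype, and 22 of these (62.9%, 44.9 to 78.5) shared it with a Th17-like cell, against 74 of 270 cells of neither lineage with 0 UMIs of the rule (27.4%, 22.2 to 33.1). Aqp3 stood at 6.98 times its level in those 0-UMI cells (3.69 to 13.2) and Pde5a at 5.09 (2.98 to 8.59). Cxcl3 stood at 0.311 (0.182 to 0.498), with 18 UMIs in the 65 cells and 404 in the 0-UMI cells. Its level, in the unit used above, was 0.424 in the 65 cells (0.251 to 0.670) and 1.36 in the 0-UMI cells. In the CD4 class comparison cells it was 0.0466 (0.0333 to 0.0635). Macrophage-marker barcodes held 367 Cxcl3 UMIs, and their part in the 0-UMI level was not tested. The median depth was 5417 UMIs in the 65 cells and 3811.5 in the 646 others. Cells with both lineages had a median of 7939 UMIs, and the part of doublets in their share was not tested.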

How the results depend on the processing

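No paired analysis was possible because both samples are libraries of 1 pool and no result compares replicates. With 1 sample, counting error is the only error given, and genes under about 50 UMIs were beyond this depth. No named gene or list median past 2-fold changed sign where measured, but 12 of 28 list medians and 20 of 121 named genes, all within 2-fold, changed sign under at least 1 alternative, cycling, Tfh and tissue residence among the lists and Maf and Hspa1a among the genes. Of 66 named genes past 2-fold, 44 stayed past it under every alternative that measured them. The cause of the moves below was not tested, beyond the fewer cells or genes that an alternative leaves.

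The Th17-like share of the CD4 class was 19.9% at 1 or more UMI, 6.45% at 3 or more, 7.52% with 2 genes found, 3.35% with all cells thinned to 2000 UMIs (39 cells) and 4.08% with another seed, added after the data were seen. The main comparison had 95 genes past 2-fold higher and 446 past 2-fold lower, of 8703 tested. When thinned they were 247 and 670 of 4816, and with another seed 223 of 4825 were higher. With 1 cell per clonotype and class 258 of 5251 were lower. At 1.5-fold the counts were 418 and 1008 of the same 8703. They were 198 and 749 at 20 UMIs over both classes and 33 and 148 at 200, where the number of genes tested differed too.

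List medians (log2) when thinned were 0.22 for Th17 transcription factors, 1.24 for receptors of Th17 signals, -0.066 for the pathogenic and 0.12 for the regulatory signature, -0.26 for Th2, -0.23 for Treg, -0.10 for GM-CSF helper, 0.25 for tissue residence, -0.39 for dissociation stress, -1.58 for interferon response, -0.86 for cycling and -0.44 for S100, annexins and galectins. With 1 cell per clonotype and class they were -1.77 for the pathogenic and -0.35 for the regulatory signature, -2.16 for GM-CSF helper, -2.63 for cytotoxic, 0.089 for tissue residence, 0.31 for tissue exit, 0.68 for gut homing, -1.27 for early TCR response, -0.40 for interferon response, -0.076 for cycling and -0.32 for S100 genes. At 3 or more UMIs they were -1.37 for the pathogenic signature, -0.55 for Th1, -0.76 for Tfh, -2.01 for GM-CSF helper, -2.27 for cytotoxic and -1.11 for early TCR response. With 2 genes found they were -1.43, -2.58 and -2.30 for the pathogenic, GM-CSF helper and cytotoxic lists, -1.26 for early TCR response and -0.27 for S100 genes. At 1 or more UMI tissue residence was -0.10. At 20 UMIs the receptors stood at -0.18 and GM-CSF helper at -1.45, and at 200 Treg at -0.50, Tfh at -1.04, interferon response at -0.45 and innate-like markers at 2.33. GM-CSF helper was -0.79 by the mean of cells and -0.62 without cycling cells, where cycling was 0.17. The pathogenic signature was -1.03 without each gene's top cell. Macrophage markers were -0.97 without cells of 2 TRB chains or macrophage UMIs.

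The neighbour share of comparison cells was 5.24% with 10 components. By TRB alone, 93.9% of Th17-like and 77.5% of comparison cells were expanded, and sharing was 3.47 among Th17-like cells, 2.57 with 1-UMI cells, 0.635 with comparison cells and 0.209 with Th2-like cells. Without the clonotype with most Th17-like cells, sharing was 1.70 with 1-UMI and 0.478 with comparison cells. The genes of the rule measured by the other 4 gave log2 ratios of 3.07 for Il17re, 2.43 for Il1r1, 3.39 for Il23r and 4.72 for Il22 when thinned, and 4.01 for Il17a and 7.47 for Il22 with 1 cell per clonotype. Csf2 was below 2-fold lower without cycling cells, at -0.69, by the mean of cells, at -0.85, and when thinned, at -0.071. Slamf6 and Zfp36 also lost 2-fold without cycling cells.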
